A study of Homo sapiens with 4 samples.

Results

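The 10 genes described here are ATF4 and effectors of the integrated stress response: ATF4, ATF5, DDIT3, DDIT4, TRIB3, CHAC1, PPP1R15A, ASNS, SESN2 and CEBPG. They were chosen by name, with earlier results of these data known. All 10 were found among the 60279 human genes of the count table. All 10 also passed the filter on low counts, which left 17322 genes to test, and 9 of them (all except ATF5) were among the 11777 genes of a table of synthesis rates. The data come from K562, an established chronic myeloid leukaemia cell line. Newly made RNA was captured after cells had taken up 1 mM 4-thiouridine (1 dose for all samples) either for 15 min (2 libraries) or for 5 min (2 libraries). All 4 samples carry the tag UT in their names, no other agent is named, and every sample received the same proportion of Drosophila S2 cell RNA as a spike-in before thiol biotinylation and capture on streptavidin beads. No label ties a replicate number to a separate culture, so the p-values measure only how far these libraries vary, and that variation may be technical. The labels name no stress treatment, and all comparisons are between the label times.

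The integrated stress response begins when 1 of several kinases phosphorylates the translation factor eIF2, which lowers protein synthesis in general while the mRNA of the transcription factor ATF4 is translated more. ATF4 then acts on genes for amino acid supply, redox balance, further transcription factors and feedback regulators, many of them through a C/EBP-ATF response element in the promoter. In red cell precursors the haem-regulated kinase EIF2AK1 feeds this pathway. These sentences are background, and none of them is a result of these data.

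The libraries held 4726327 and 5051370 human reads after 15 min and 4339981 and 4695405 after 5 min, with 15.3 and 15.8 human reads per fly read after 15 min against 4.84 and 5.84 after 5 min. Markers of K562 and erythroid cells summed to 2373 and 2388 CPM (reads per 1000000 human reads) after 15 min and to 2979 and 3173 CPM after 5 min, with all 11 markers detected. Summed levels of 4 other marker lists were 9.30 to 10.4 CPM after 15 min and 13.8 to 17.1 CPM after 5 min for T cells, at least 10.7 and at most 4.61 CPM for B cells, 22.9 to 24.0 and 21.2 to 21.9 CPM for monocytes, and 0.792 to 1.69 and 2.34 to 2.53 CPM for fibroblasts. The epithelial list summed to 33.9 to 35.8 CPM after 15 min and 53.5 to 59.6 CPM after 5 min, nearly all of it from EPCAM, while KRT5 was at 0. In such bulk samples fewer cells of a type and less RNA per cell cannot be told apart, and the part of these markers in the results was not tested. CD8A, MS4A1 and LUM were also at 0 in all 4 libraries.

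Most of the 10 genes are compact. In GENCODE 29 (GRCh38, the build named in the submitters' processing notes) 7 of the 10 span less than 10 kb, against 19.9% of the 11520 tested protein-coding genes. ATF4 (chr22:39519695-39522685, plus strand) spans 2991 bases, of which 2514 are exonic, and DDIT4 (chr10:72273920-72276036, plus) spans 2117 bases with 2058 exonic. PPP1R15A (chr19:48872392-48876057, plus), CHAC1 (chr15:40952962-40956519, plus), DDIT3 (chr12:57516588-57521737, minus), ATF5 (chr19:49928702-49933935, plus) and CEBPG (chr19:33373330-33382686, plus) span 3666, 3558, 5150, 5234 and 9357 bases. The longer members are ASNS (chr7:97852118-97872542, minus), SESN2 (chr1:28259527-28282491, plus) and TRIB3 (chr20:362835-397559, plus), with spans of 20425, 22965 and 34725 bases. Uridine, the base that 4-thiouridine replaces, made up 18.0% of the longest coding transcript of PPP1R15A, the lowest of the members, and 28.3% of that of CEBPG, the highest, where the median of tested coding genes was 25.1%. The transcripts of 8 members lay below that median, and those of ASNS and CEBPG above it.

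Overlaps with other genes limit some of the counts, because no source used here gives the counting feature or says whether strand was used. DDIT3 shares 355 exonic bases with MARS and 58 with MBD6, both on the opposite strand, and 105 with AC022506.1 on its own strand. ATF5 shares 626 exonic bases with NUP62 and 75 with IL4I1, both on the opposite strand, and 74 with MIR4751 on its own strand. DDIT4 shares 847 exonic bases with the antisense gene DDIT4-AS1, which was listed at 0 in every library, and ASNS shares 1985 exonic bases with AC079781.5 on its own strand. The other 6 members overlap no other gene in that annotation. Among the annotated pseudogene copies of ATF4, ATF4P3 had 21 and 32 reads after 15 min and 19 and 16 after 5 min, and ASNSP1, a copy of ASNS, had 83 and 61 reads after 15 min and 55 and 58 after 5 min. How reads shared with such copies were assigned is not given.

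The promoters are shown because the C/EBP-ATF response element is the site through which ATF4 and C/EBP factors are known to bind several of these genes. RefSeq promoters (GRCh38.p14) were matched for all 10 genes, with 18 annotated starts in all, and the 250 bases before each start were searched on both strands for the letters TGATGNAA. The letters were found for 3 of the 10 genes (ASNS, CHAC1 and CEBPG), and in 3.16% of 34788 distinct promoter windows of the same length. A second motif, the palindromic cyclic AMP response element TGACGTCA, which ATF and CREB factors bind, was added after the sequences had been seen. It was found for 1 member, PPP1R15A, and in 1.64% of the windows. For both motifs a gene counts once if any of its windows matches, while the percentages count single windows, so the figures are not alike. None of these matches overlapped another. The 4 matches are printed 5′ to 3′ on the strand of the gene, with 11 bases on each side and the motif in capitals.
ASNS: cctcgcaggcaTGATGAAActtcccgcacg
CHAC1: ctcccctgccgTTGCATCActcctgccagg
CEBPG: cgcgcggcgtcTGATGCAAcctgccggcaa
PPP1R15A: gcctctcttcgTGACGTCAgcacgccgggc
The capitals lie at chr7:97872469-97872476 for ASNS, chr15:40953262-40953269 for CHAC1, chr19:33374071-33374078 for CEBPG and chr19:48872363-48872370 for PPP1R15A. The match in ASNS lies 61 to 68 bases before the start, that in CHAC1 202 to 209 bases before it and reads as the element on the other strand, and that in PPP1R15A 51 to 58 bases before it. The match in CEBPG lies 35 to 42 bases before the second of its 2 annotated starts. These starts are those of RefSeq, and the GENCODE spans given above begin before them. The matches in ASNS, CHAC1 and CEBPG therefore lie within the GENCODE genes, while that in PPP1R15A lies before its gene. All 250 bases of the CHAC1 window are exonic in GENCODE, as are those of each ATF4 window and of the first CEBPG window. The other windows with a match are exonic in part, and the SESN2 window holds no exonic base. No match in ATF4, ATF5, DDIT3, DDIT4, SESN2 or TRIB3 says only that these letters are not in these windows.

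Levels of different genes were compared per kilobase of merged exon length and 1000000 human reads (RPKM). ATF4 stood highest at both label times, with 153 and 149 RPKM after 15 min and 106 and 98.3 RPKM after 5 min. PPP1R15A followed after 15 min, with 127 and 122 RPKM, and its range overlapped that of DDIT4, at 112 and 125 RPKM. After 5 min the order of those genes was the other way round, with DDIT4 at 79.2 and 84.7 RPKM above PPP1R15A at 66.1 and 60.7 RPKM. DDIT3 was the only other member above 40 RPKM in all libraries, at 74.1 and 66.2 RPKM after 15 min and 47.1 and 47.9 RPKM after 5 min.

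The remaining members formed a lower tier. After 15 min SESN2 (28.8 ± 0.476 RPKM, mean ± SD, n = 2) and ASNS (28.7 ± 0.503) overlapped each other, and TRIB3 (27.7 ± 0.123), ATF5 (21.0 ± 0.693) and CEBPG (19.9 ± 0.608) came next, each above the one after it in both libraries. After 5 min ASNS led this tier at 36.1 ± 1.79 RPKM, followed by TRIB3 (24.3 ± 0.563) and SESN2 (21.5 ± 0.434), and ATF5 (18.7 ± 0.403) overlapped CEBPG (18.4 ± 1.06). CHAC1 was lowest at both times, with 10.4 ± 1.54 RPKM after 15 min and 6.94 ± 0.00567 after 5 min. Divided by the full gene span in place of the exons, ATF4, DDIT4, PPP1R15A and DDIT3 were still the highest at both times. TRIB3, the member with the longest span, was then the lowest, at 2.74 ± 0.0122 reads per kilobase of span and 1000000 human reads after 15 min and 2.40 ± 0.0557 after 5 min.

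The authors' deposited table of synthesis rates gives 1 value per gene with no error, no unit and no stated correction for length, and the libraries behind it are not given, so it is not independent support. In that table ATF4 stood at rank 129 from the top of 11777 genes (rate 0.244), DDIT4 at rank 156 (0.204), PPP1R15A at rank 194 (0.172) and DDIT3 at rank 286 (0.122). These 4 are the members above the 95th percentile of the deposited table (0.0748). In the deposited table ASNS had a rate of 0.0575, CEBPG of 0.0440, SESN2 of 0.0356, TRIB3 of 0.0220 and CHAC1 of 0.0188. All 9 listed members were above the median of the authors' deposited table (0.0114), and 7 were above its upper quartile (0.0257). ATF5 is not among the rows of the rates table used here.

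**Figure D1:**
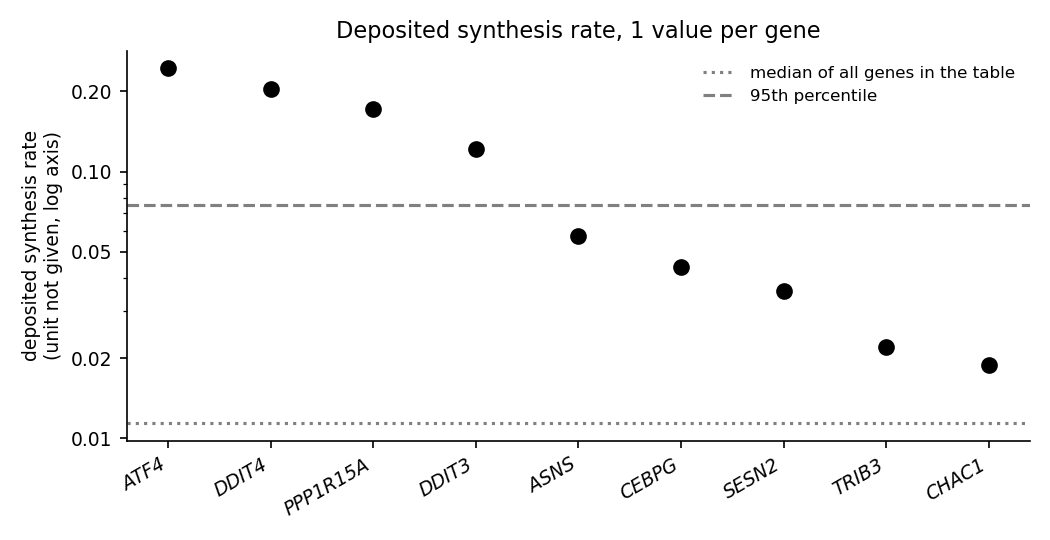
Deposited synthesis rate of the 9 members in the rates table (points, 1 value per gene, log axis, unit not given) from highest to lowest, with the median (dotted) and 95th percentile (dashed) of all genes in the table. ATF4, DDIT4, PPP1R15A and DDIT3 lie above the dashed line at 0.0748.

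The first comparison asked which members gained or lost share of the labelled human RNA between the label times, that is, relative to the other human genes in the same library. Of the 10 genes, 6 rose in share after 15 min (PPP1R15A, CHAC1, ATF4, DDIT3, DDIT4 and SESN2), 1 fell (ASNS) and 3 did not pass (TRIB3, ATF5 and CEBPG). Over all tested genes 16.0% rose and 22.1% fell. The median log2 fold change of the 10 genes was 0.36, beside 0.02 over all tested genes. Together the 10 genes took 1592 and 1599 of each 1000000 human reads after 15 min, against 1160 and 1145 after 5 min. ATF4, PPP1R15A and DDIT4 held most of these reads, with 386, 394 and 230 of the 1592 in 15 min replicate 1. Calls come from edgeR's quasi-likelihood test with TMM factors and Benjamini-Hochberg adjustment over all tested genes at 0.05, and CPM in this comparison is scaled by the same factors. Scaling moves the reference point, since 42.0% of all called genes were higher with TMM factors, 60.1% with total counts and 68.8% with totals that leave out mitochondrially encoded genes, and the median over all genes was 0.02, 0.13 and 0.19 on the log2 scale. Mitochondrially encoded genes held 5.93% and 6.94% of the human reads after 15 min and 2.07% and 2.59% after 5 min.

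Among the transcription factors, ATF4 itself, which drives the programme, had 1949 and 1767 reads after 15 min and 1156 and 1160 after 5 min. That is 371 and 359 CPM after 15 min against 275 and 259 CPM after 5 min. Both 15 min libraries lay above both 5 min libraries, as they did for 33.5% of all tested genes, and the share of ATF4 rose by 0.45 ± 0.0618 on the log2 scale (SE, adjusted p = 6.26e-12, edgeR). DDIT3, which encodes CHOP, a partner and target of ATF4 that takes part in stress-induced cell death, had 489 and 409 reads after 15 min and 267 and 294 after 5 min. Its level was 93.1 and 83.0 CPM after 15 min against 63.6 and 65.7 CPM after 5 min, without overlap, and its share rose by 0.45 ± 0.0896 (adjusted p = 4.86e-06).

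MIR616, a microRNA gene inside an intron of DDIT3 on the same strand, shares no exonic base with it, and whether its reads come from the DDIT3 transcript was not tested. It had 114 and 102 reads after 15 min and 66 and 63 after 5 min, and rose by 0.51 on the log2 scale (adjusted p = 0.0102, edgeR). That call was lost with DESeq2 (adjusted p = 0.153), without 15 min replicate 1 (0.0908) and without 5 min replicate 2 (0.117). Reads of MIR616 per read of DDIT3 were 0.233 and 0.249 after 15 min and 0.247 and 0.214 after 5 min, so the groups overlapped. MARS, the methionyl-tRNA synthetase gene that overlaps DDIT3 on the opposite strand, fell in share, with 1346 and 1230 reads after 15 min and 1262 and 1295 after 5 min (log2 fold change -0.22, adjusted p = 0.00183). MARS lost that call with DESeq2 (adjusted p = 0.0556), with total counts (-0.10, adjusted p = 0.175) and with totals that leave out mitochondrially encoded genes (-0.04, adjusted p = 0.602). MBD6, which also overlaps DDIT3 on the opposite strand, rose in share by 0.33 (adjusted p = 0.00132, edgeR). It had 441 and 370 reads after 15 min and 278 and 270 after 5 min. Whether reads of either neighbour entered the count of DDIT3 was not tested.

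The other members of this class did not pass in either direction. ATF5, a factor related to ATF4 and also controlled through translation, had 58.2 and 60.9 CPM after 15 min and 57.9 and 56.9 CPM after 5 min (log2 fold change 0.05 ± 0.0999, adjusted p = 0.719, edgeR). The approximate 95% interval of its fold change was 0.906 to 1.19. CEBPG, a short C/EBP protein that pairs with ATF4, had 82.6 and 86.1 CPM after 15 min and 87.4 and 81.7 CPM after 5 min. These were the only overlapping groups among the 10 genes. Over all tested genes, both 15 min libraries lay above both 5 min libraries for 33.5% and below them for 34.0%. The log2 fold change of CEBPG was -0.00357 ± 0.0855 (adjusted p = 0.981) with an interval of 0.888- to 1.12-fold. Its sign depends on the scaling, and its log2 fold change ran from -0.05 to 0.17 over the alternatives.

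Among the feedback regulators, PPP1R15A rose most of all members. It encodes GADD34, the subunit that brings a phosphatase to eIF2 and so ends the response. It had 1992 and 1787 reads after 15 min and 887 and 882 after 5 min, or 379 and 363 CPM after 15 min against 211 and 197 CPM after 5 min. Its share rose by 0.86 ± 0.0632 on the log2 scale (adjusted p = 3.87e-40, edgeR), a fold of 1.82, which was at the 95.1th percentile of all tested genes. Its constitutive relative PPP1R15B had 2027 and 1928 reads after 15 min and 1235 and 1276 after 5 min, and rose by 0.42 (adjusted p = 8.22e-11). Within each library there were 0.983 and 0.927 reads of PPP1R15A per read of PPP1R15B after 15 min, against 0.718 and 0.691 after 5 min. An exact permutation test gave p = 0.333 for this ratio, the smallest p that 4 libraries allow. How many of all genes had such a higher ratio was not counted. TRIB3, a pseudokinase that binds ATF4 and CHOP and restrains them, had 91.2 and 91.5 CPM after 15 min and 84.8 and 88.9 CPM after 5 min. The 15 min libraries of TRIB3 lay above the 5 min ones, as for 33.5% of all tested genes. The log2 fold change of TRIB3, 0.07 ± 0.0837, did not pass (adjusted p = 0.528, edgeR), with an interval of 0.939- to 1.18-fold.

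DDIT4 and SESN2 both encode inhibitors of the growth kinase complex mTORC1, and both rose in share. DDIT4 (REDD1) had 1162 and 1220 reads after 15 min and 707 and 818 after 5 min. Its level was 221 and 248 CPM after 15 min against 168 and 183 CPM after 5 min, a rise of 0.42 ± 0.0661 on the log2 scale (adjusted p = 4.46e-09, edgeR). SESN2, a leucine sensor, had 497 and 476 reads after 15 min and 318 and 354 after 5 min. Its level was 94.6 and 96.6 CPM after 15 min against 75.7 and 79.1 CPM after 5 min, a rise of 0.30 ± 0.0849 (adjusted p = 0.00157). The groups overlapped for neither gene, where both 15 min libraries lay above both 5 min libraries for 33.5% of all tested genes. With DESeq2 the call of SESN2 was lost (log2 fold change 0.31, adjusted p = 0.0748).

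CHAC1, an enzyme that degrades glutathione and a known target of ATF4, is the member with the fewest reads, 97 and 112 after 15 min and 62 and 67 after 5 min. Its level was 18.5 and 22.7 CPM after 15 min against 14.8 and 15.0 CPM after 5 min, and its share rose by 0.47 ± 0.173 on the log2 scale (adjusted p = 0.0221, edgeR). The call was lost without 15 min replicate 2 (0.31, adjusted p = 0.325), without 5 min replicate 1 (0.44, 0.0998), without 5 min replicate 2 (0.48, 0.0859) and with DESeq2 (0.47, 0.209).

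ASNS, which makes asparagine and is a textbook target of ATF4, was the only member to fall in share. It had 637 and 611 reads after 15 min and 673 and 781 after 5 min. Its level was 121 and 124 CPM after 15 min against 160 and 174 CPM after 5 min, with a change of -0.45 ± 0.0716 on the log2 scale (adjusted p = 4.52e-09, edgeR). Both 15 min libraries lay below both 5 min libraries, as for 34.0% of all tested genes, and the fold of 0.732 was at the 15.9th percentile.

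**Figure D2:**
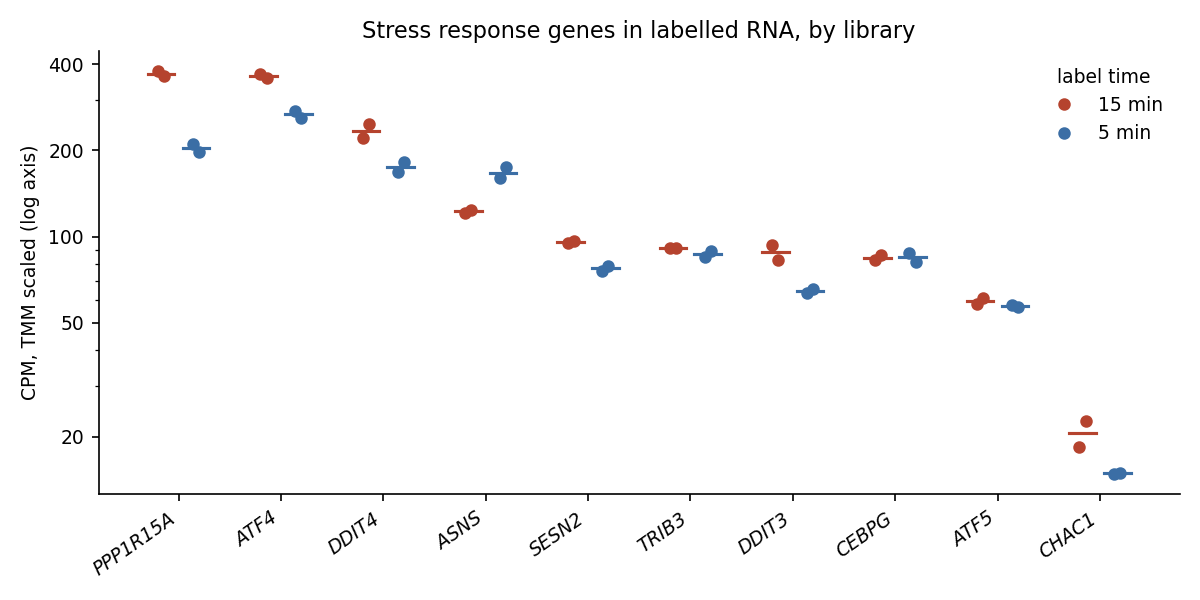
CPM with TMM scaling (log axis) of each of the 10 genes in the 15 min (red, left) and 5 min (blue, right) libraries. Points are libraries, 2 per label time, and bars are means. The pairs overlap for CEBPG, ASNS is lower after 15 min, and PPP1R15A shows the widest gap, with 379 and 363 CPM after 15 min against 211 and 197 CPM after 5 min.

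Ratios of reads between 2 members of the same library need no scaling, and they were added after the data had been seen. Per read of ATF4 there were 1.02 and 1.01 reads of PPP1R15A after 15 min, against 0.767 and 0.760 after 5 min. ASNS had 0.327 and 0.346 reads per ATF4 read after 15 min, against 0.582 and 0.673 after 5 min, so its ratio to ATF4 after 15 min was 0.536 of that after 5 min. CEBPG had 0.223 and 0.240 reads per ATF4 read after 15 min, against 0.317 and 0.316 after 5 min. TRIB3, ATF5 and SESN2 likewise had lower ratios in both 15 min libraries, with means of 0.770, 0.760 and 0.904 of those after 5 min. The rise of ATF4 in share was itself at the 81.1th percentile of all tested genes. A lower ratio to ATF4 therefore need not mean a fall in share. How many of all genes had such a lower ratio was not counted.

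DDIT3, DDIT4 and CHAC1 overlapped between label times in this ratio. DDIT3 had 0.251 and 0.231 reads per ATF4 read after 15 min and 0.231 and 0.253 after 5 min. DDIT4 had 0.596 and 0.690 after 15 min and 0.612 and 0.705 after 5 min, and CHAC1 0.0498 and 0.0634 after 15 min and 0.0536 and 0.0578 after 5 min. With 4 libraries the smallest p of a two-sided exact permutation test is 0.333. That was the p of each ratio whose groups did not overlap, and the 9 ratios to ATF4 could therefore not pass 0.05.

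**Figure D3:**
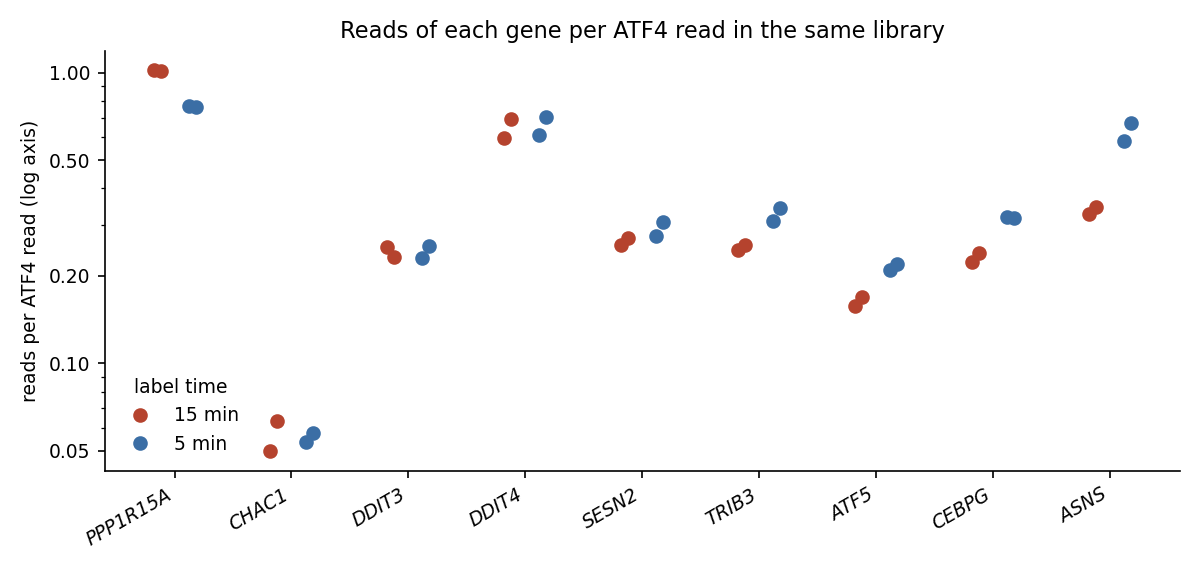
Reads of each of the other 9 genes per read of ATF4 in the same library (log axis), after 15 min (red, left) and 5 min (blue, right). PPP1R15A is higher after 15 min, ASNS lies at 0.327 and 0.346 after 15 min against 0.582 and 0.673 after 5 min, and CHAC1, DDIT3 and DDIT4 overlap.

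Genes whose change over the 4 libraries was most like that of ATF4 were ranked by the Euclidean distance between centred log2 CPM profiles, over 10864 genes with a mean of at least 10 CPM. The nearest were TMEM138 (distance 0.0164), ZNF17 (0.0169), ATXN7L1 (0.0208), C22orf39 (0.0232) and BAIAP2 (0.0247). The nearest member was DDIT3, at rank 336 (distance 0.125), and the farthest was ASNS, at rank 8798 (0.909). For DDIT3 the nearest genes were AL512770.1 (0.0119), PCSK7 (0.0137), FTH1 (0.0362), AC008079.1 (0.0366) and AC078795.1 (0.0374), of which AL512770.1, AC008079.1 and AC078795.1 are annotated as antisense RNAs. With 4 libraries many genes share nearly any profile, so these ranks describe the libraries only.

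The second comparison asked how much labelled RNA of each gene built up per mass of total RNA, using the fly reads as the yardstick. All 10 genes rose, where 98.4% of all tested genes rose and 0.0115% fell. Both 15 min libraries lay above both 5 min libraries for all 10, as for 99.0% of tested genes, while 0.0404% lay below. In reads per 10000 fly reads, ATF4 stood at 61.2 and 57.2 after 15 min against 12.9 and 14.4 after 5 min, a 4.33-fold rise (log2 fold change 2.12 ± 0.174 SE, adjusted p = 3.11e-32, edgeR, with fly totals as library sizes). PPP1R15A stood at 62.5 and 57.8 after 15 min against 9.89 and 10.97 after 5 min, a 5.77-fold rise (adjusted p = 2.05e-43). ASNS rose least, to 20.0 and 19.8 after 15 min against 7.50 and 9.72 after 5 min, a 2.31-fold rise (adjusted p = 8.28e-13). ASNS fell in share while its labelled RNA per fly read rose. The other folds were 4.38 for CHAC1, 4.31 for DDIT3, 4.21 for DDIT4, 3.90 for SESN2, 3.33 for TRIB3, 3.29 for ATF5 and 3.16 for CEBPG, beside a median log2 fold change of 1.68 over all tested genes and 2.02 over the 10. An error in the fly totals would move all genes together.

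The label times differ 3-fold, so the same fit was used to ask which genes built up by more or less than 3-fold. PPP1R15A (1.92 times the 3-fold mark, adjusted p = 3.04e-06, edgeR), ATF4 (1.44 times, adjusted p = 0.0149), DDIT3 (1.44 times, adjusted p = 0.0167) and DDIT4 (1.40 times, adjusted p = 0.0246) exceeded it, 4 of 10 genes where 11.3% of all tested genes did. None of the 10 was below it, where 8.99% of all genes were. CHAC1 (1.46 times, adjusted p = 0.0568), SESN2 (1.30 times, 0.0920) and ASNS (0.771 times, 0.0910) did not pass, and neither did TRIB3, ATF5 and CEBPG, at 1.11, 1.10 and 1.06 times. These calls rest on few libraries, and with the replicate number added to the fit as a block PPP1R15A alone stayed above 3-fold. No member kept its call when either 15 min library was left out. Leaving out either 5 min library added calls, and ASNS stood at 0.682 times the 3-fold mark without 5 min replicate 1. Calls over all genes also moved widely between fits with 1 library left out. The members called in those fits are therefore not set against the 11.3%. Without 15 min replicate 1 the value for PPP1R15A was 1.85 times with an adjusted p of 0.212, and without 15 min replicate 2 it was 2.00 times with 0.0910.

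**Figure D4:**
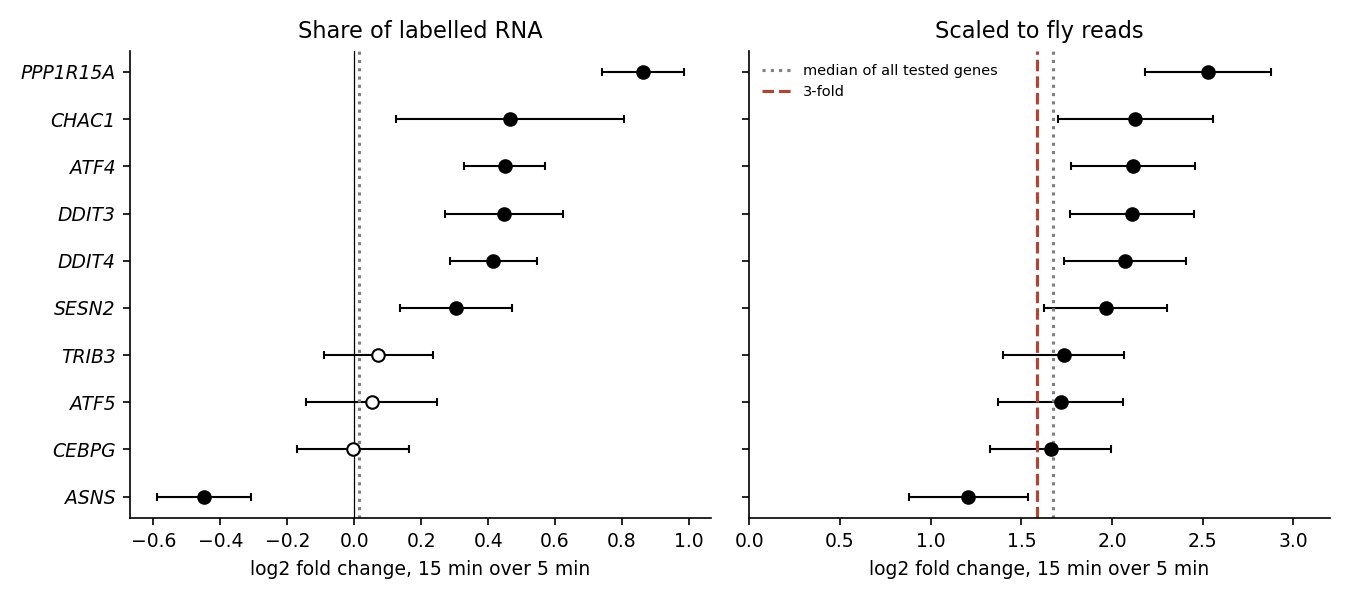
Log2 fold change, 15 min over 5 min, of each gene in share of labelled RNA (left) and scaled to fly reads (right). Points are edgeR estimates from 2 libraries per label time, bars are approximate 95% intervals, and filled points passed at an adjusted p of 0.05 against no change. Dotted lines are the medians of all tested genes, and the dashed line is 3-fold. PPP1R15A is highest (0.86 left, 2.53 right) and ASNS lowest (-0.45 left, 1.21 right) in both panels.

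Of 18 genes for eIF2 kinases, eIF2, its exchange factor eIF2B and their regulators, 10 fell, 3 rose and 5 did not pass, with a median log2 fold change of -0.29, where 22.1% of all genes fell and 16.0% rose. GCN1, the activator of the kinase GCN2 and the list's highest gene beside PPP1R15B, fell by 0.51 (1545 and 1507 reads after 15 min, 1736 and 1978 after 5 min, adjusted p = 1.41e-15, edgeR). OMA1, the mitochondrial protease that signals to this pathway, fell most, by 0.93 (40 and 48 reads after 15 min, 76 and 67 after 5 min, adjusted p = 4.01e-05). PPP1R15B rose most in this list. EIF2AK1, the haem-regulated kinase, fell by 0.55 (801 and 724 reads after 15 min, 874 and 1028 after 5 min, adjusted p = 1.01e-14), and was named for its role in red cell precursors after its values had been seen.

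Among bZIP partners and co-factors of ATF4, 6 of 10 passed the filter, and 2 of these rose, 0 fell and 4 did not pass, where 16.0% of all genes rose and 22.1% fell. The 2 that rose were ATF3, a stress-induced repressor (0.38, 355 and 313 reads after 15 min, 227 and 211 after 5 min, adjusted p = 8.80e-04, edgeR), and CEBPB, a C/EBP activator (0.26, adjusted p = 0.0252). Neither passed with DESeq2 (adjusted p = 0.0658 for ATF3 and 0.223 for CEBPB). ATF3 also lost the call without 5 min replicate 2 (adjusted p = 0.0774), and CEBPB without 15 min replicate 1 (0.0562), 15 min replicate 2 (0.165) or 5 min replicate 1 (0.339). NFE2L2, which encodes NRF2, was at 0.03 on the log2 scale (adjusted p = 0.726), and JUN, a subunit of AP-1, at 0.18 (adjusted p = 0.0624). Both passed as higher with total counts (adjusted p = 0.0402 for NFE2L2 and 0.00106 for JUN) and with totals that leave out mitochondrially encoded genes (0.00193 and 3.73e-05), and JUN without 5 min replicate 1 (0.0396). The 4 below the filter were CEBPA, NUPR1, MAF and BATF3.

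The other metabolic targets of ATF4 were described next. Of 20 genes for amino acid synthesis and transport, 11 fell, 2 rose and 7 did not pass, with a median of -0.22, where 22.1% of all genes fell and 16.0% rose. PYCR1, the last enzyme of proline synthesis, fell most, by 1.12 (227 and 210 reads after 15 min, 369 and 439 after 5 min, adjusted p = 2.94e-29, edgeR). The transporter gene SLC38A2, the highest of the list, fell by 0.21 (adjusted p = 0.00203), a call lost without 15 min replicate 1 (adjusted p = 0.217), with total counts (-0.10, adjusted p = 0.198) and with totals that leave out mitochondrially encoded genes (-0.04, adjusted p = 0.660). SLC3A2, the shared heavy chain of several amino acid transporters, rose by 0.39 (2753 and 2659 reads after 15 min, 1653 and 1873 after 5 min, adjusted p = 1.77e-09), and the glycine transporter gene SLC6A9 rose most, by 0.47 (adjusted p = 0.0104). SLC6A9 lost that call with DESeq2 (adjusted p = 0.150), without 15 min replicate 1 (0.105) and without 5 min replicate 2 (0.124). Of 13 genes for cytosolic aminoacyl-tRNA synthetases and the tRNA exporter XPOT, 11 fell, 1 rose and 1 did not pass, with a median of -0.45, against the same shares of all genes, 22.1% lower and 16.0% higher. EPRS fell most, by 1.18 (939 and 1025 reads after 15 min, 1769 and 2043 after 5 min, adjusted p = 6.89e-76), the highest genes IARS and TARS fell by 0.45 (adjusted p = 1.89e-12) and 0.40 (adjusted p = 9.69e-10), and CARS rose by 0.24 (adjusted p = 0.00645). The call of CARS was lost with DESeq2 (adjusted p = 0.138), without 15 min replicate 1 (0.232) and without 5 min replicate 2 (0.0911).

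Of 12 other stress targets of ATF4 and CHOP 11 passed the filter, and of these 5 rose, 1 fell and 5 did not pass, with a median of 0.19, where 16.0% of all genes rose and 22.1% fell. VEGFA, the vascular growth factor gene and the highest of the list, rose most, by 0.56 (3215 and 3037 reads after 15 min, 1741 and 1871 after 5 min, adjusted p = 7.43e-19, edgeR). ATG12, an autophagy gene, rose by 0.18 (adjusted p = 0.0308), and ERO1A, an oxidase of the endoplasmic reticulum, fell by 0.64 (adjusted p = 1.37e-09). ATG12 lost its call with DESeq2 (adjusted p = 0.219) and whichever library was left out (0.0580 without 15 min replicate 1, 0.233 without 15 min replicate 2, 0.0547 without 5 min replicate 1 and 0.248 without 5 min replicate 2).

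The IRE1 and ATF6 arms of the unfolded protein response, which run beside the ATF4 arm, had 14 of 15 genes tested, of which 9 fell, 3 rose and 2 did not pass, with a median of -0.42, where 22.1% of all genes fell and 16.0% rose. The chaperone gene CANX fell most, by 1.00 (2391 and 2427 reads after 15 min, 3798 and 4449 after 5 min, adjusted p = 6.66e-58, edgeR), and HSPA5, which encodes BiP, fell by 0.24 (adjusted p = 3.21e-04), a call lost with total counts (-0.13, adjusted p = 0.0822) and with totals that leave out mitochondrially encoded genes (-0.06, adjusted p = 0.399). ERN1, the gene of the sensor IRE1, rose most, by 0.29 (380 and 376 reads after 15 min, 249 and 279 after 5 min, adjusted p = 0.00792). ERN1 lost the call with DESeq2 (adjusted p = 0.139), without 5 min replicate 1 (0.104) and without 15 min replicate 2 (0.0983). XBP1 was listed at 0 in all 4 libraries, and whether that comes from the counting or from the cells was not tested. With totals that leave out mitochondrially encoded genes, falls and rises numbered 8 and 6 for the eIF2 list, 7 and 5 for amino acid genes, 10 and 2 for synthetases, 7 and 3 for these arms, 1 and 9 for the other stress targets and 0 and 6 for the bZIP partners. Over all 17322 tested genes, 2349 fell and 5169 rose with those totals. Lists are described by counts and medians beside those of all genes, and no test set one list against another. Like the members, the lists were chosen with earlier results of these data known.

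**Figure D5:**
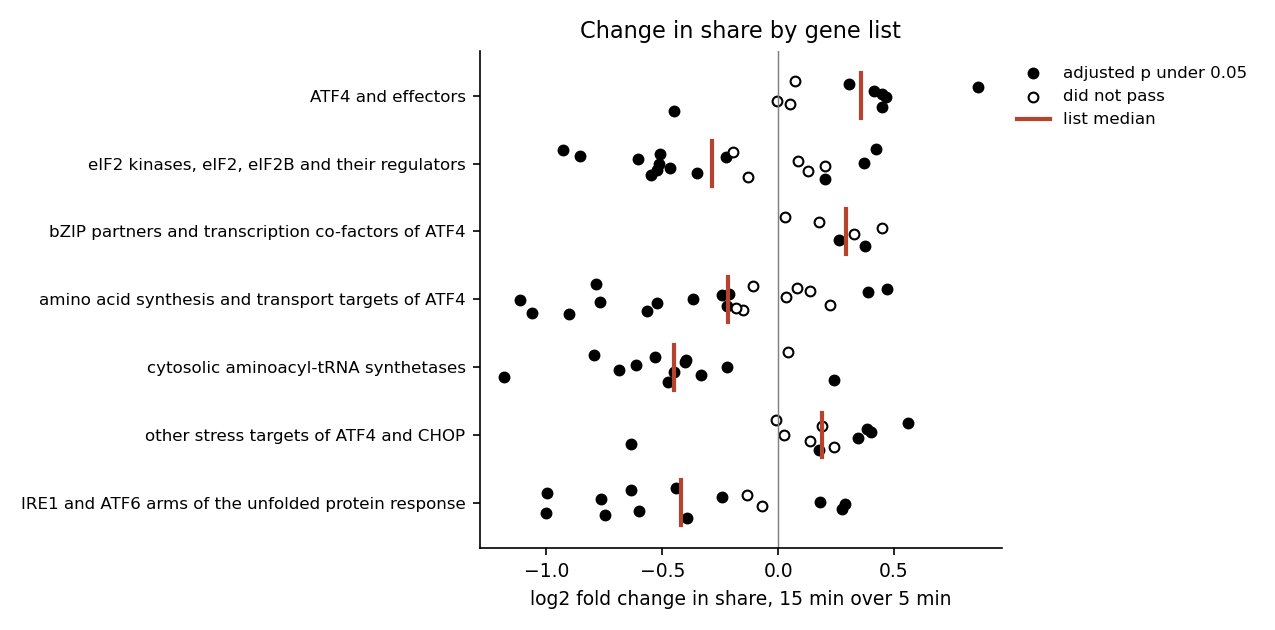
Log2 fold change in share, 15 min over 5 min, of every tested gene in 7 lists (1 point per gene; filled, adjusted p under 0.05; open, did not pass; red bar, list median). The medians run from -0.45 for aminoacyl-tRNA synthetases to 0.36 for ATF4 and its effectors.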

How the data were processed

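Per the labels' protocols, fly RNA was added to total RNA, which was sonicated, biotinylated and captured. The tools, per the submitters' processing notes, included edgeR, Subread 2.0.1 with featureCounts, STAR 2.7 and bcl2fastq 2.17.1.14, and the builds hg38 and dm6, with no role or order stated. The deposited tables hold unnormalized read counts for each human and fly gene, and a synthesis rate per gene, treated here as a score without unit. Libraries held 4339981 to 5051370 human and 308978 to 897018 fly reads.

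Share was tested with edgeR 4.0.16 (filterByExpr defaults, TMM, robust quasi-likelihood, label time as only term, two-sided, Benjamini-Hochberg at 0.05). Build-up used fly totals as library sizes, and the 3-fold test also multiplied the 15 min sizes by 3. SEs come from the F statistic. The scripts were tested on simulated counts with the same dispersion for every gene and no error in the fly totals. Such counts check the scripts and do not show how well the p-values hold in the real libraries. Alternatives were no filter, DESeq2 1.42.0, other scalings, the replicate number as a block, and each library left out. Libraries of a label time differed by more than counting error (chi-square over its degrees of freedom, 1.70 after 15 min and 1.55 after 5 min).

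The members and lists were chosen with earlier results of these data known. Named genes are all members, and in each other list the 2 highest in CPM plus the largest called rise and fall, with likeness to ATF4 and DDIT3 ranked over the 4 libraries. GENCODE 29 held 56590 of the 60279 human identifiers.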

Additional observations from a re-analysis of the deposited data

How the results depend on the processing

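The counts of members that rose or fell in share were 6 and 1, 4 and 1 with DESeq2, 5 to 6 and 1 with 1 library left out, and 8 and 1 with totals that leave out mitochondrially encoded genes, where ATF5 (log2 fold change 0.23, adjusted p = 0.0474) and TRIB3 (0.25, 0.00831) also passed. Of 100 member values of share under the alternatives, 93 kept their direction and side of the threshold or never passed, 5 lost the call and 2 gained it. On the fly scale all 10 members rose under every alternative run. Against 3-fold, members above it numbered 4, with 0 to 7 when 1 library was left out, and members below it 0, with 0 to 1. With the replicate number as a block, 1 member was above 3-fold (PPP1R15A), and ATF4 (log2 0.53 relative to 3-fold, SE 0.219 against 0.170 without the block, adjusted p = 0.0882), DDIT3 (0.53, SE 0.207 against 0.171, 0.0724) and DDIT4 (0.50, SE 0.212 against 0.168, 0.102) did not pass. In share the block changed no call of a member. Same-numbered libraries deviated together with a correlation of 0.0487 across genes, from 2 pairs, so the numbers are not taken as pairs. With 1 library left out, the lone library of a label time is assumed to vary like the others. The cause of these changes was not tested, and the fits with 1 library left out also rest on fewer libraries.

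Over all genes 2773 rose and 3829 fell in share, 923 and 2370 with DESeq2, 4233 and 2805 with total counts, 5169 and 2349 with totals without mitochondrially encoded genes, and 1729 to 2149 rose with 1 library left out. Above and below 3-fold were 1951 and 1557 genes, 1158 and 924 with the block, 778 above with DESeq2, and 40 to 3797 above and 33 to 3624 below with 1 library left out. On the fly scale 2 genes fell, and 0 to 1 did with 1 library left out and 0 with DESeq2. Over the alternatives rises numbered 2 to 6 in the eIF2 list, 0 to 6 for bZIP partners, 1 to 5 for amino acid genes, 0 to 2 for synthetases, 2 to 9 for other stress targets and 0 to 3 for the IRE1 and ATF6 arms, and falls 8 to 10, 0, 7 to 11, 10 to 11, 1 and 7 to 9 in the same order. Depth limits CHAC1 most, with at most 112 reads in a library.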
